A study of Mus musculus with 4 samples.

Results

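The genes described here are those of the proteasome, its regulators and its assembly factors, taken as every gene of the expression table whose symbol begins with Psma to Psmg followed by a digit. Of 24087 genes in the table, 50 matched. They are the core alpha subunits (8 genes), the core beta subunits (7), the immunoproteasome and thymoproteasome beta subunits (4), the ATPases (6) and non-ATPase subunits (11) of the regulatory particle, activators and an inhibitor (5), assembly factors (7) and 2 genes that share the symbol only, Psmc3ip and Psme3ip1. The symbol alone decided membership, but the family was selected on results of the KO against CTRL contrast in these same libraries. Fold changes and counts of that contrast are therefore given as a description of the family, and nothing further is read from them.

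RNA was measured in splenic Treg cells, the Foxp3-expressing CD4+ T cells that restrain other T cells, from C57BL/6 mice at steady state. KO cells came from Foxp3Cre-YFPSetd2f/f mice, in which Cre expressed from the Foxp3 locus deletes both floxed alleles of Setd2, the gene of an H3K36 methyltransferase, in Foxp3+ cells. CTRL cells came from Foxp3Cre-YFPSetd2f/+ littermates, which carry the same Cre and YFP and also lose 1 allele in these cells. There were 2 libraries per genotype, named CTRL 1, CTRL 2, KO 1 and KO 2, each from about 1000000 CD3+CD4+YFP+ cells of 2 pooled mice. The labels give no age, the methods give an age range for the study's mice in general and not for these libraries, and nothing ties a mouse of one library to a mouse of another.

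The proteasome degrades proteins tagged with ubiquitin. Its barrel-shaped core has outer rings of alpha subunits, which form the gate, and inner rings of beta subunits, of which Psmb5, Psmb6 and Psmb7 carry the active sites. Interferon-responsive cells and most haematopoietic cells replace these with Psmb8, Psmb9 and Psmb10 and so make the immunoproteasome, which shapes the peptides shown on MHC class I. The regulatory particle binds ubiquitin chains, and its ring of ATPases unfolds the substrate and threads it into the core, whereas the PA28 caps open the gate without ATP.

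The libraries were of similar depth, with at least 25260776 to 27556722 reads behind the values of a library, a lower bound recovered from the steps between low values. CTRL 1 stood apart in its weakly expressed genes, with 19100 genes above 0 compared with 15913 to 16410 in the other libraries. Setd2 was at 23.4 and 25.3 FPKM (fragments per kilobase of gene, scaled to library size) in the CTRL libraries and at 21.3 and 19.5 FPKM in the KO libraries. Both KO libraries were below both CTRL libraries, with a log2 fold change of -0.24 (SE 0.076), but the value covers the whole gene and not the floxed exons alone. Cd3e, Cd4 and Foxp3 were at 112 FPKM or more in every library. Of the CD8 T cell markers, Cd8a was at 0.326 FPKM or less and Cd8b1 at 8.33, 11.2, 10.3 and 11.1 FPKM in CTRL 1, CTRL 2, KO 1 and KO 2.

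Upstream stretches of some proteasome genes that rose in KO are shown first, because both interferon-responsive and stress-responsive factors are known to act on promoters of this family. RefSeq promoter windows (GRCm38.p6), which hold the 250 bases before and the 50 bases after a gene's start, were matched by symbol for 42 of the 50 genes, and 4 genes had more than 1 window. Psma8, Psmb1, Psmb2, Psmb7, Psmc3, Psmd3, Psmd7 and Psmg2 had none. Each stretch below is the run of up to 100 bases nearest to the start that holds no annotated exon, read 5′ to 3′ on the gene's own strand. Capitals mark the antioxidant response element core TGACNNNGC, which the factors NRF1 and NRF2 are known to bind, or the CCAAT box. They come from Psmb5 (chr14:54618023-54618122, minus strand), Psmb6 (chr11:70525257-70525356, plus strand), Psmb3 (chr11:97703299-97703398, plus strand) and Psmb10 (chr8:105938445-105938544, minus strand).
Psmb5: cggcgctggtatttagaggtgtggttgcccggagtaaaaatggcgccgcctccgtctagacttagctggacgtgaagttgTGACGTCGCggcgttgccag
Psmb6: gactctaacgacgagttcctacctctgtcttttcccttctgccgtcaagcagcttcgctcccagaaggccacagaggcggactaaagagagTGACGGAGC
Psmb3: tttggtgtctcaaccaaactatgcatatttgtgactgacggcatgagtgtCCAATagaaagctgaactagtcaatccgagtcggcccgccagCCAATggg
Psmb10: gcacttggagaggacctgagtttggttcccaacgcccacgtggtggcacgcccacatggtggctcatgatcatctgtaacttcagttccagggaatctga

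In Psmb5 and Psmb6 the element began 47 and 9 bases before the start, and in Psmb3 the CCAAT boxes began 85 and 43 bases before it. The Psmb10 stretch held none of the motifs searched, and neither did those of Psmd8 and Psme2, which also rose and are not printed. Psma4 and Psmb9 had no exon-free stretch before the start. Over whole windows and on both strands, TGACNNNGC was found in 6 of 42 proteasome genes (14.3%) and in 14.9% of the 17961 genes of the table with a window. The genes were Psmb5, Psmb6, Psmc6, Psmd9, Psmd12 and Psme4. CCAAT was found in 16 of 42 (38.1%, compared with 42.3%). GAAANNGAA, a core of interferon regulatory factor sites, was found in 7 of 42 (16.7%, compared with 9.35%), namely Psmb3, Psmb4, Psmc2, Psmd4, Psmd9, Psme1 and Psmg4. A match is a description of letters and no evidence that a factor binds.

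The proteasome family as a whole was strongly expressed in Treg cells, and its summed level was higher in both KO libraries than in both CTRL libraries. Together the 50 genes took 0.740% and 0.725% of the summed FPKM in CTRL 1 and CTRL 2 and 0.830% and 0.864% in KO 1 and KO 2. Of the 50, 48 passed the filter on low values (at least 1 FPKM in at least 2 libraries). The testis subunit Psma8, at 0.144 FPKM or less, and the thymoproteasome subunit Psmb11, at 0.0476 FPKM or less, did not. Of the 48, 10 rose in KO at an adjusted p under 0.05 (limma on log2(FPKM + 1), two-sided, Benjamini-Hochberg over 11399 genes), compared with 5.10% of all genes tested. None of the 48 fell, compared with 4.65% of all genes. At an unadjusted p under 0.05 limma gave 22 higher and 1 lower. Counts at that unadjusted cut, here and below, are given without the share of all genes tested. They cannot be read against it. Their log2 fold changes were above 0 for 42 genes and had a median of 0.17, whereas the median over all genes tested was -0.022. Both KO libraries lay above both CTRL libraries for 37 of the 48 (29.0% of all genes tested), below them for 2 (35.5% of all genes tested) and among them for 9. In bulk RNA, a different share of cells expressing a gene and a different level per cell cannot be told apart.

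The 10 genes that rose were the catalytic subunits Psmb5, Psmb6, Psmb7, Psmb9 and Psmb10, the structural core subunits Psma4 and Psmb3, the ATPase Psmc3, the regulatory subunit Psmd8 and the activator subunit Psme2. The changes were small, from 0.24 in Psmb6 to 0.43 in Psmb10 on the log2 scale, and their adjusted p ran from 0.0346 to 0.0494. Just inside the threshold lay Psme2, Psmb3 and Psmb6, and just outside it Psme1, Psmc1 and Psma1, with log2 fold changes of 0.29, 0.23 and 0.35. The calls rested on all 4 libraries, as did those over the whole table. Without any 1 library nearly all calls of the table were lost, those of the proteasome genes included. The median log2 fold change of the proteasome genes without CTRL 1, CTRL 2, KO 1 or KO 2 was 0.19, 0.15, 0.20 and 0.14. With all genes above 0 tested, 0 of all 19888 genes passed, proteasome genes included. Without a variance trend Psmb10 was the only proteasome gene to pass, while 315 of all 11399 genes were higher and 364 lower.

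**Figure D1:**
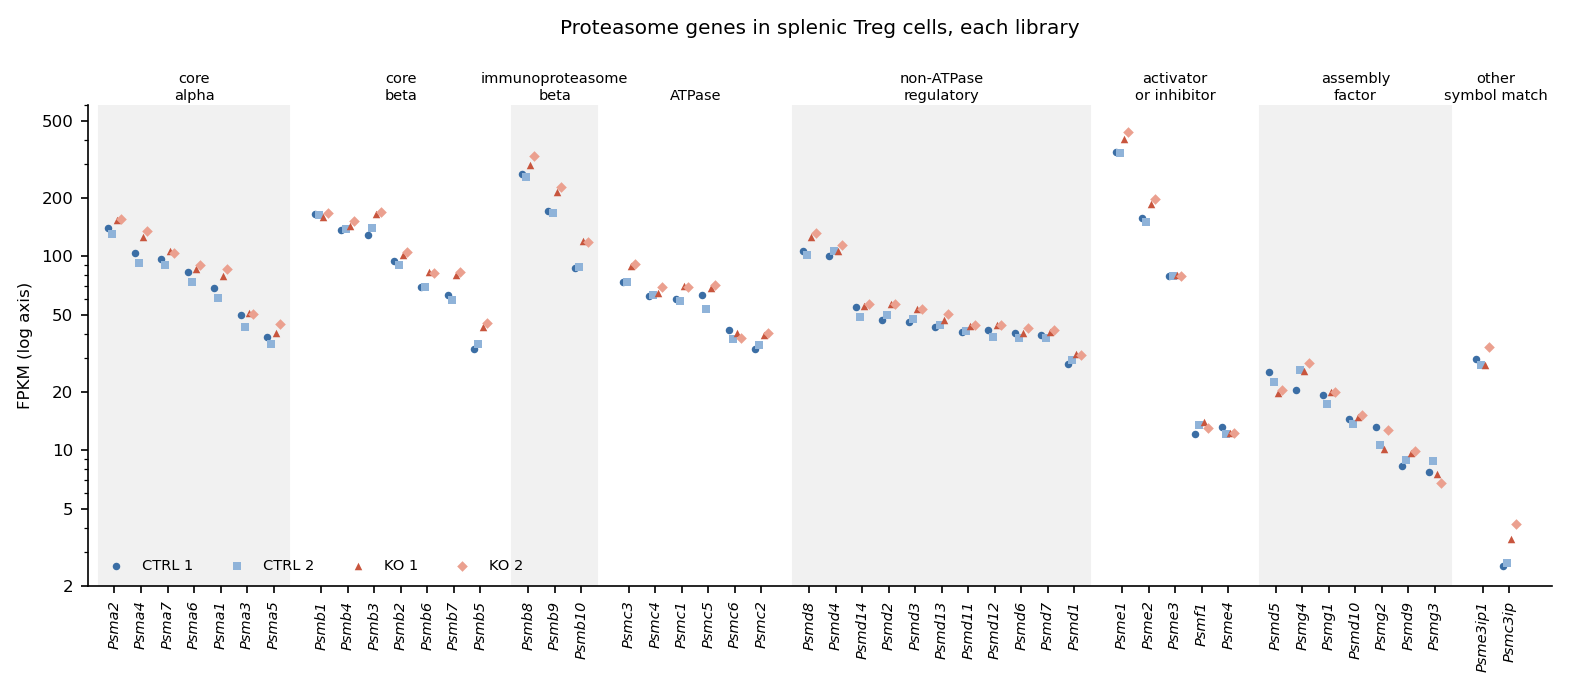
FPKM of the 48 tested genes in each of the 4 libraries on a log axis, grouped by role and ordered by CTRL mean within a role. Psme1 and Psmb8 stand highest, assembly factors lie below 30 FPKM, and the libraries of a gene lie close together compared with the range between genes.

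**Figure D2:**
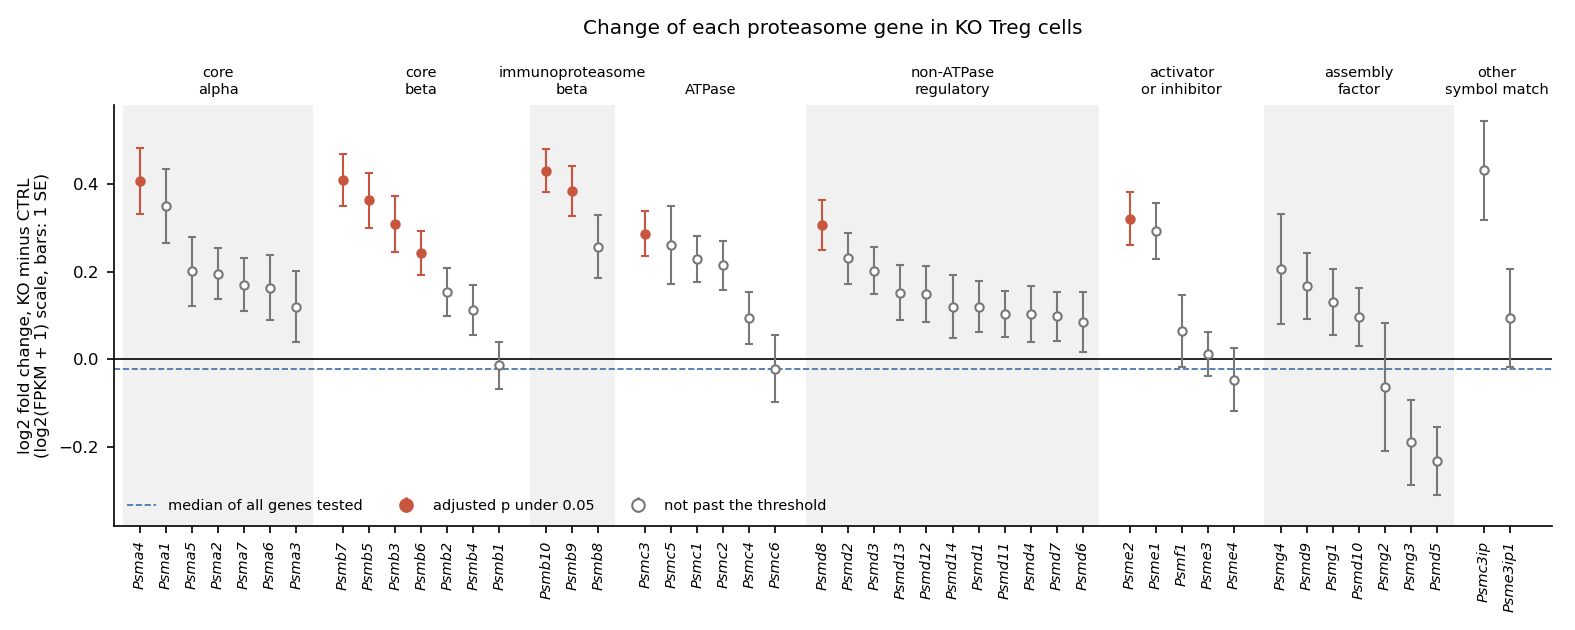
Log2 fold change (KO minus CTRL, on the log2(FPKM + 1) scale) of the 48 tested genes by role, with bars of 1 standard error from the limma fit. Filled points mark the 10 genes with an adjusted p under 0.05, and the dashed line is the median of all genes tested, -0.022.

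The core alpha subunits build the outer rings and the gate of the core. All 7 that were tested had a fold change above 0, with a median of 0.20, and both KO libraries lay above both CTRL libraries for each of them, but only Psma4 passed the threshold. Psma4 (ENSMUSG00000032301, chromosome 9, 54950790 to 54958030, GRCm38) was at 104 (CTRL 1), 92.7 (CTRL 2), 126 (KO 1) and 134 FPKM (KO 2). Its log2 fold change was 0.41 (SE 0.076), or 1.33 times on the FPKM scale. Psma1 was next, at 68.7 and 60.8 FPKM in CTRL libraries against 79.0 and 86.5 FPKM in KO libraries (0.35, SE 0.085).

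Psma2 was the most abundant alpha gene and Psma3 the one that differed least. Psma2 was at 140 and 130 FPKM in CTRL, compared with 154 and 156 in KO (0.20, SE 0.058), and Psma3 at 49.96 and 43.4 FPKM in CTRL libraries against 50.9 and 50.5 FPKM in KO libraries (0.12, SE 0.081). CTRL 2 was the lowest library for every alpha gene, and the 7 genes differed by a median of -0.16 between CTRL 2 and CTRL 1. Without CTRL 2 the median log2 fold change of the alpha genes was 0.15, compared with 0.20. The encoded proteins occupy the ring in equal numbers, but the CTRL means of their mRNAs spanned 3.68-fold, from 36.7 FPKM in Psma5 to 135 FPKM in Psma2.

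Among the core beta subunits all 3 constitutive catalytic genes rose, together with 1 of 4 structural genes. Psmb5, the chymotrypsin-like subunit that proteasome inhibitor drugs chiefly target (ENSMUSG00000022193, chromosome 14, 54614119 to 54618022), was at 33.2 (CTRL 1), 35.4 (CTRL 2), 43.2 (KO 1) and 45.6 FPKM (KO 2). The values rested on at least 950, 1067, 1329 and 1408 reads. Its mean rose from 34.3 ± 1.498 to 44.4 ± 1.68 FPKM (SD, n = 2 per genotype), a log2 fold change of 0.36 (SE 0.064).

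Psmb6, the caspase-like subunit (ENSMUSG00000018286, chromosome 11, 70525367 to 70527858), had closely matched replicates, at 69.7 and 69.5 FPKM in CTRL, compared with 83.2 and 81.9 in KO. Its log2 fold change was 0.24 (SE 0.050). Psmb7, the trypsin-like subunit (ENSMUSG00000026750, chromosome 2, 38588036 to 38644087), stood at 62.9 and 59.5 FPKM in CTRL libraries against 79.8 and 83.3 FPKM in KO libraries. Its log2 fold change of 0.41 (SE 0.059) was the highest of the constitutive core. Psmb5 was thus the least abundant catalytic gene in all 4 libraries, and Psmb6 and Psmb7 lay close to each other.

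The structural beta genes were more abundant than the constitutive catalytic ones and had a lower median log2 fold change (0.13, compared with 0.36). Psmb3 (ENSMUSG00000069744, chromosome 11, 97703399 to 97713500) stood at 129 and 141 FPKM in CTRL, compared with 165 and 169 in KO, with a log2 fold change of 0.31 (SE 0.064). Psmb2 and Psmb4 had log2 fold changes of 0.15 (SE 0.055) and 0.11 (SE 0.057), with both KO libraries above both CTRL libraries. Psmb1 had the highest mean of the constitutive core, at 165 and 164 FPKM in CTRL libraries against 159 and 167 FPKM in KO libraries, and a log2 fold change of -0.014 (SE 0.054). The sign of the Psmb1 value changed with the scaling, to 0.0049 after median-ratio scaling and 0.0010 with the exon length trend removed.

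The immunoproteasome genes exceeded their constitutive counterparts in every library, and Psmb9 and Psmb10 rose in KO. Psmb8, which takes the place of Psmb5 (ENSMUSG00000024338, chromosome 17, 34197721 to 34201454), was the most abundant gene of the core, at 266 (CTRL 1), 255 (CTRL 2), 295 (KO 1) and 328 FPKM (KO 2). Both KO libraries lay above both CTRL libraries, but KO 1 and KO 2 differed by more than the CTRL libraries did, and the log2 fold change of 0.26 (SE 0.072) did not pass the threshold. Psmb9, which takes the place of Psmb6 (ENSMUSG00000096727, chromosome 17, 34181987 to 34187764), stood at 171 and 168 FPKM in CTRL, compared with 215 and 228 in KO (0.38, SE 0.057).

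Psmb10, which takes the place of Psmb7 (ENSMUSG00000031897, chromosome 8, 105935735 to 105938444), was at 87.4 (CTRL 1), 88.1 (CTRL 2), 119 (KO 1) and 118 FPKM (KO 2). Its mean rose from 87.8 ± 0.457 to 119 ± 1.07 FPKM (SD, n = 2 per genotype). With 0.43 (SE 0.050) it had the highest log2 fold change of all tested subunits and assembly factors. Of the 14 other processing settings, 9 left any proteasome gene past the threshold, and Psmb10 was among them each time. Psmb8 and Psmb9 lie 9957 bases apart in the MHC region, beside Tap1 and Tap2.

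**Figure D3:**
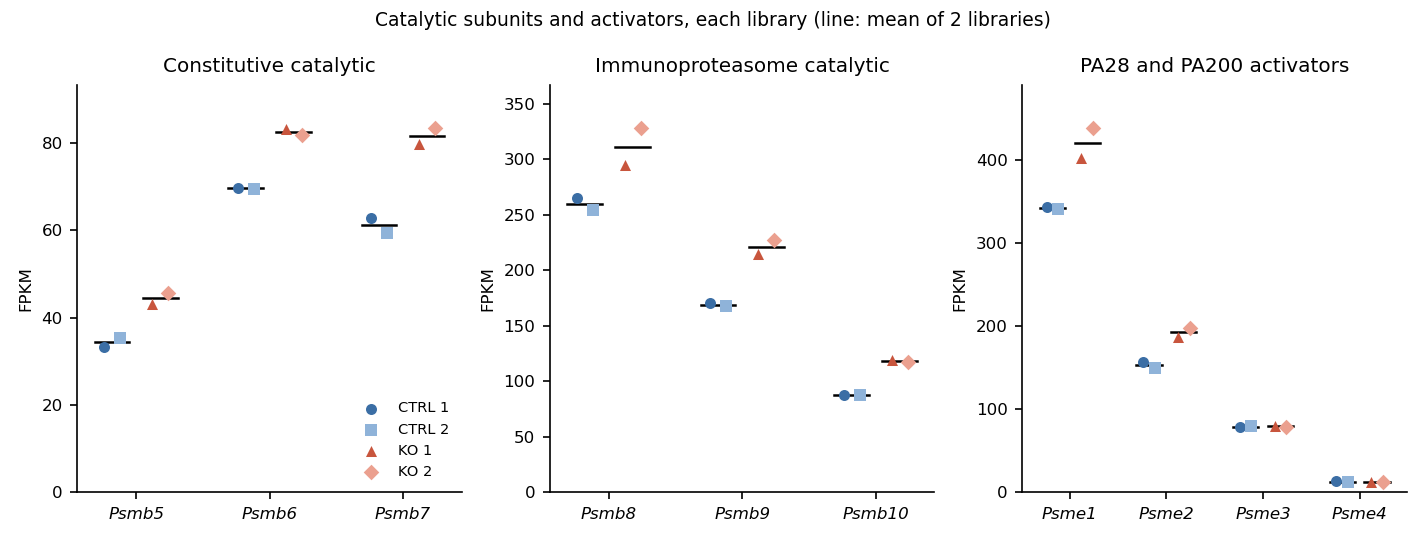
FPKM of the constitutive catalytic genes, the immunoproteasome catalytic genes and the activators in each library (points) with the mean of the 2 libraries per genotype (lines), on axes that start at 0. KO libraries lie above CTRL libraries for the 6 catalytic genes and for Psme1 and Psme2, and overlap them for Psme3 and Psme4.

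The summed share of the immunoproteasome genes varied little, whereas the ratios of single pairs went different ways. Psmb8, Psmb9 and Psmb10 made up 75.9% and 75.7% of the summed FPKM of the 6 catalytic genes in CTRL 1 and CTRL 2 and 75.3% and 76.2% in KO 1 and KO 2. The sum of the 3 constitutive genes was 1.26 times as high in KO as in CTRL, and that of the immunoproteasome beta genes likewise 1.26 times. Within a library, the ratio of Psmb8 to Psmb5 was 7.99 and 7.21 in CTRL and 6.83 and 7.20 in KO, lower in KO by a narrow margin. The ratio of Psmb9 to Psmb6 was 2.45 and 2.41 in CTRL and 2.58 and 2.78 in KO, higher in KO without overlap. The ratio of Psmb10 to Psmb7 was 1.39 and 1.48 in CTRL and 1.497 and 1.41 in KO, so its libraries overlapped. With 2 libraries per genotype an exact permutation test of a single ratio can give no p below 0.333, and no ratio could pass a threshold.

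The 6 ATPases form the unfolding ring. Their median log2 fold change was 0.22, 5 of them lay higher in both KO libraries than in both CTRL libraries, and Psmc3 passed the threshold. Psmc3 (ENSMUSG00000002102, chromosome 2, 91054009 to 91066369) was also the most abundant of them, at 74.2 (CTRL 1), 73.7 (CTRL 2), 89.1 (KO 1) and 91.8 FPKM (KO 2), with a log2 fold change of 0.29 (SE 0.052). Psmc1, Psmc2 and Psmc5 had log2 fold changes of 0.23, 0.22 and 0.26, and Psmc4 one of 0.095 (SE 0.060). Psmc6 stood apart from the ring, at 41.9 and 37.5 FPKM in CTRL libraries against 40.1 and 38.0 FPKM in KO libraries, so that its KO libraries lay between its CTRL libraries (-0.021, SE 0.076). Levels were more even than in the core, with a range of 2.17-fold between the CTRL means of Psmc2 and Psmc3.

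The 11 non-ATPase subunits include the ubiquitin receptor Psmd4 and the deubiquitinase Psmd14. All 11 had a fold change above 0 (Psmd4 was at -0.010 after quantile normalization), 10 of them lay higher in both KO libraries than in both CTRL libraries, and their median of 0.12 was the lowest among the roles of the core and regulatory particle. Psmd8 alone passed the threshold. Psmd8 (ENSMUSG00000030591, chromosome 7, 29174188 to 29180701), a lid subunit, was at 106 (CTRL 1), 101 (CTRL 2), 126 (KO 1) and 131 FPKM (KO 2), with a log2 fold change of 0.31 (SE 0.057). It was the most abundant of the 11.

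Psmd2 and Psmd3 followed with 0.23 (SE 0.059) and 0.20 (SE 0.054). Psmd2 was at 46.8 and 49.9 FPKM in CTRL, compared with 56.8 and 57.0 in KO. Psmd4 was at 100 and 106 FPKM in CTRL libraries against 107 and 115 FPKM in KO libraries (0.10, SE 0.064), and Psmd14 had a log2 fold change of 0.12 (SE 0.072). Psmd6 differed least, at 40.3 and 37.7 FPKM in CTRL, compared with 40.04 and 42.9 in KO, and was the one gene of the 11 whose libraries overlapped (0.086, SE 0.067). The others, Psmd1, Psmd7, Psmd11, Psmd12 and Psmd13, had log2 fold changes from 0.098 to 0.15.

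Psme1 and Psme2 encode PA28 alpha and beta, the interferon-inducible cap that is found with the immunoproteasome. Psme1 (ENSMUSG00000022216, chromosome 14, 55578123 to 55581529) was the most abundant gene of the family, at 344 (CTRL 1), 341 (CTRL 2), 403 (KO 1) and 438 FPKM (KO 2). Its log2 fold change was 0.29 (SE 0.064), just short of the threshold. Psme2 (ENSMUSG00000079197, chromosome 14, 55587441 to 55591113), 5912 bases away, stood at 158 and 150 FPKM in CTRL libraries against 187 and 198 FPKM in KO libraries, and passed it with 0.32 (SE 0.060). The ratio of Psme1 to Psme2 stayed between 2.16 and 2.27 over the 4 libraries.

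Psme3, Psme4 and Psmf1 had values that overlapped between genotypes. Psme3, the nuclear PA28 gamma, was at 78.9 and 79.5 FPKM in CTRL, compared with 80.4 and 79.3 in KO, a log2 fold change of 0.012 (SE 0.050). The Psme3 value became -0.074 under quantile normalization and -0.0060 with the exon length trend removed. Psme4, which encodes PA200, was at 13.2 and 12.2 FPKM in CTRL libraries against 12.2 and 12.3 FPKM in KO libraries (-0.046, SE 0.072, and 0.026 with the exon length trend removed). The inhibitor gene Psmf1 (PI31) was at 12.2 and 13.5 FPKM in CTRL, compared with 13.9 and 13.05 in KO (0.065, SE 0.082). The ratio of Psme1 to Psme3 was 4.36 and 4.29 in CTRL and 5.01 and 5.53 in KO, without overlap.

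Assembly factors guide the building of the core (Psmg1 to Psmg4) or of the base of the regulatory particle (Psmd5, Psmd9 and Psmd10) and are not part of the finished complex. None of the 7 passed the threshold in the limma fit, and 0 in the higher and 1 in the lower direction had an unadjusted p under 0.05. The summed level of the 7 genes was 109 and 108 FPKM in CTRL and 108 and 114 FPKM in KO. Psmd5 was the one gene of the family with an unadjusted p under 0.05 in the lower direction, at 25.2 (CTRL 1), 22.5 (CTRL 2), 19.8 (KO 1) and 20.5 FPKM (KO 2) (-0.23, SE 0.077). Psmg3 was likewise below both CTRL libraries in both KO libraries, at 7.78 and 8.84 FPKM in CTRL libraries against 7.53 and 6.79 FPKM in KO libraries (-0.19, SE 0.097).

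Psmg4 had the highest fold change and the highest mean of the assembly factors, but its CTRL libraries were far apart, at 20.6 and 26.1 FPKM, compared with 25.5 and 28.3 FPKM in KO (0.21, SE 0.13). Psmg1, Psmd9 and Psmd10 had log2 fold changes of 0.13, 0.17 and 0.098, with both KO libraries above both CTRL libraries. Psmg2 was at 13.2 and 10.7 FPKM in CTRL, compared with 10.1 and 12.7 in KO (-0.063, SE 0.15), and this value changed sign without CTRL 1 or without KO 1.

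The 2 genes that share only the symbol are no subunits. Psmc3ip encodes a partner of meiotic recombinases and was the weakest of the 48 genes, at 2.54 and 2.61 FPKM in CTRL libraries against 3.50 and 4.18 FPKM in KO libraries (0.43, SE 0.11, not past the threshold), from at least 81 to 144 reads. Psme3ip1, named for its binding to PA28 gamma, was at 29.6 and 27.7 FPKM in CTRL, compared with 27.6 and 34.04 in KO (0.095, SE 0.11). Leaving both out, 46 genes were tested, and their median log2 fold change was again 0.17.

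**Figure D4:**
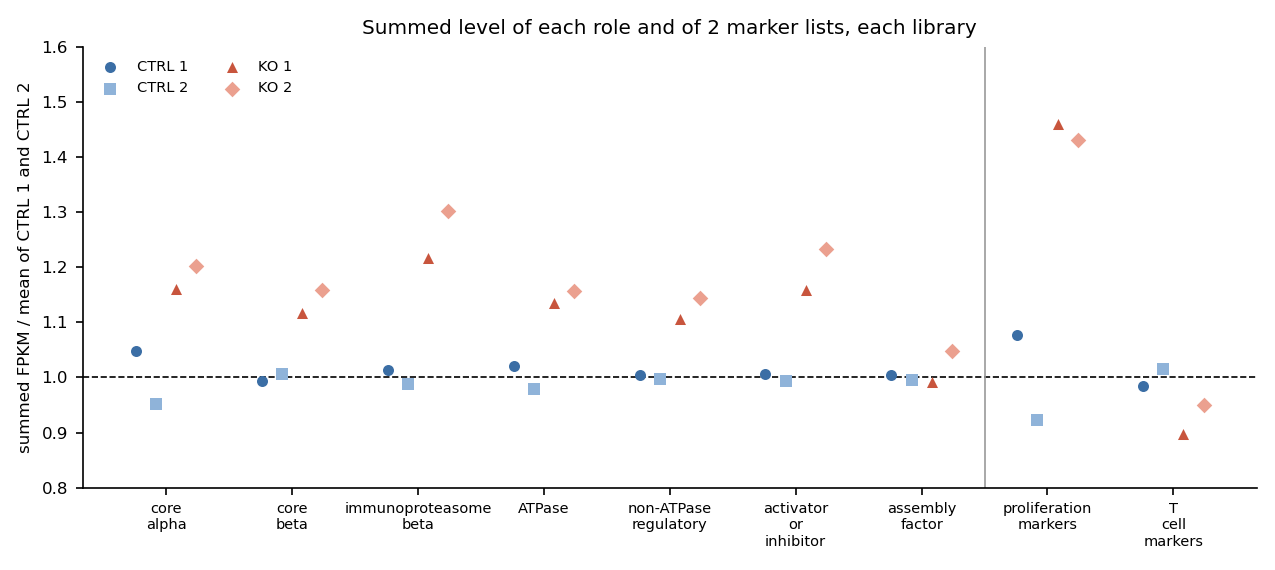
Summed FPKM of each role, of the proliferation markers and of the T cell markers in each library, divided by the mean of CTRL 1 and CTRL 2 (dashed line at 1). Both KO libraries lie above both CTRL libraries for each of the 7 roles shown except the assembly factors, and the proliferation markers lie further above.

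The summed level of a role in KO was 1.18 times that in CTRL for the alpha subunits, 1.14 times for the beta subunits, 1.26 times for the immunoproteasome beta subunits, 1.15 times for the ATPases, 1.13 times for the non-ATPase subunits, 1.2 times for the activators and inhibitor and 1.02 times for the assembly factors. The proliferation markers were also higher in KO. Of 10, 8 rose (Top2a by 1.04 and Mcm5 by 0.84 on the log2 scale), and their summed FPKM was 437 and 374 in CTRL 1 and CTRL 2 and 593 and 581 in KO 1 and KO 2. CTRL 2 was the lowest library for the sum of these markers as well as for the alpha genes. Their part in the proteasome values was not tested.

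Summed levels of other cell types' markers varied widely between libraries of a genotype. The 8 B cell markers summed to 1734 and 998 FPKM in CTRL and to 2594 and 1674 FPKM in KO, most of it Ighm and Igkc, and Ighm was higher in both KO libraries (log2 fold change 0.67, SE 0.17). Pax5, a B cell transcription factor below the filter, was at 0.404 and 0.287 FPKM in CTRL and 1.08 and 0.420 FPKM in KO, and Cd79b, a chain of the B cell receptor, was at 10.9 and 12.8 FPKM in CTRL and 16.0 and 13.7 FPKM in KO (log2 fold change 0.30, SE 0.11), so both KO libraries lay above both CTRL libraries for Ighm, Pax5 and Cd79b. The 8 myeloid markers summed to 175 and 105 FPKM in CTRL and to 241 and 85.9 FPKM in KO, with S100a8 listed at 0 in CTRL 2. The 4 erythroid markers summed to 2.21 to 20.02 FPKM, and the 2 CD8 T cell markers to 11.4 FPKM or less. The part of other cell types in the proteasome values was not tested. The 4 T cell markers summed to 1292 and 1333 FPKM in CTRL and to 1177 and 1248 FPKM in KO, and the 5 Treg markers to 1068 and 1137 FPKM in CTRL and to 1178 and 1089 FPKM in KO. The Treg markers went different ways, and none passed the threshold. Il2ra (log2 fold change -0.35, SE 0.13) and Foxp3 (-0.17, SE 0.088) were lower in both KO libraries than in both CTRL libraries. Ikzf2 was higher in both (0.17, SE 0.058), and Ctla4 and Tnfrsf18 overlapped.

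A list of 29 partners held the core chaperone Pomp, the ubiquitin receptors and deubiquitinases of the regulatory particle, shuttle factors, the unfoldase Vcp with its cofactors, the regulators Nfe2l1 and Nfe2l2, and ubiquitin genes. Of these, 28 were in the table and 27 were tested. None passed the threshold in the limma fit, and their median log2 fold change was 0.031. An unadjusted p under 0.05 in limma was reached by 4 in the higher and by 1 in the lower direction. The share of all genes tested at that cut is not given. Both KO libraries lay above both CTRL libraries for 7 of the 27 (29.0% of all genes tested). They lay below for 5 (35.5% of all genes tested), and 15 overlapped. Pomp, Sem1 and Adrm1 were among those above. Ubqln4 (-0.31, SE 0.095), Rps27a (-0.21, SE 0.098), Ecpas (-0.13, SE 0.068) and Ube3c (-0.14, SE 0.077) were among those below. Usp14 (-0.13, SE 0.095) and Uchl5 (0.060, SE 0.095) overlapped. Ubqln4 had the largest change of the list in either direction, at 24.6 and 29.3 FPKM in CTRL, compared with 21.5 and 21.3 in KO. Pomp was at 116 and 107 FPKM in CTRL libraries against 122 and 133 FPKM in KO libraries (0.19, SE 0.074), Sem1, a small lid subunit, at 84.4 and 85.7 FPKM in CTRL, compared with 96.2 and 97.5 in KO (0.18, SE 0.050), and Adrm1, a ubiquitin receptor, at 65.3 and 72.1 FPKM in CTRL libraries against 81.2 and 80.2 FPKM in KO libraries (0.23, SE 0.067). Pomp, Sem1, Adrm1, Ubqln4, Rps27a, Ecpas, Ube3c, Usp14 and Uchl5 were named after their values had been seen. Nfe2l1, the gene of NRF1, was at 20.1 and 22.1 FPKM in CTRL, compared with 18.9 and 19.2 in KO (-0.14, SE 0.072), and Nfe2l2 had a log2 fold change of -0.13 (SE 0.12).

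Downstream of the immunoproteasome lies MHC class I presentation. Of 13 genes listed for it, all were tested, 1 rose (5.10% of all genes tested) and 0 fell (4.65% of all genes tested). An unadjusted p under 0.05 in limma was reached by 6 in the higher and 0 in the lower direction. The share of all genes tested at that cut is not given. The median log2 fold change was 0.16. The gene that rose was Irf1, an interferon-induced transcription factor known to act on Psmb8, Psmb9 and Psmb10, at 119 (CTRL 1), 121 (CTRL 2), 186 (KO 1) and 160 FPKM (KO 2) (0.51, SE 0.086). Its call was lost without any 1 of the 4 libraries, as were nearly all calls over the whole table. Tap1, which lies beside Psmb9, was at 173 and 172 FPKM in CTRL libraries against 200 and 210 FPKM in KO libraries (0.25, SE 0.054). Tap2, Tapbp, B2m, H2-K1, H2-D1 and Calr also had both KO libraries above both CTRL libraries, whereas Erap1, Canx and Nlrc5 had both below.

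Several values could include reads of a neighbour, since the use of strand in the counting was not stated. Of the tested genes, 13 share exon bases with a gene on the other strand, among them 4 that rose: Psma4 with AY074887 (4.81% of its exon bases), Psmb7 with Nek6 (11.8%), Psmb9 with Tap1 (5.79%) and Psmc3 with Slc39a13 (8.25%). Psmb8 shares 14.7% with Gm20496 and Psmd9 25.5% with Gm26745, and Psmb5 encloses Mir686 on its own strand. Proteasome genes were also short, with a median exon length of 2814 bases compared with 4238 bases over all genes tested. With each library's trend with exon length removed, 5 of the 10 remained past the threshold (Psma4, Psmb7, Psmb9, Psmb10 and Psmd8), and the median log2 fold change was 0.16.

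**Figure D5:**
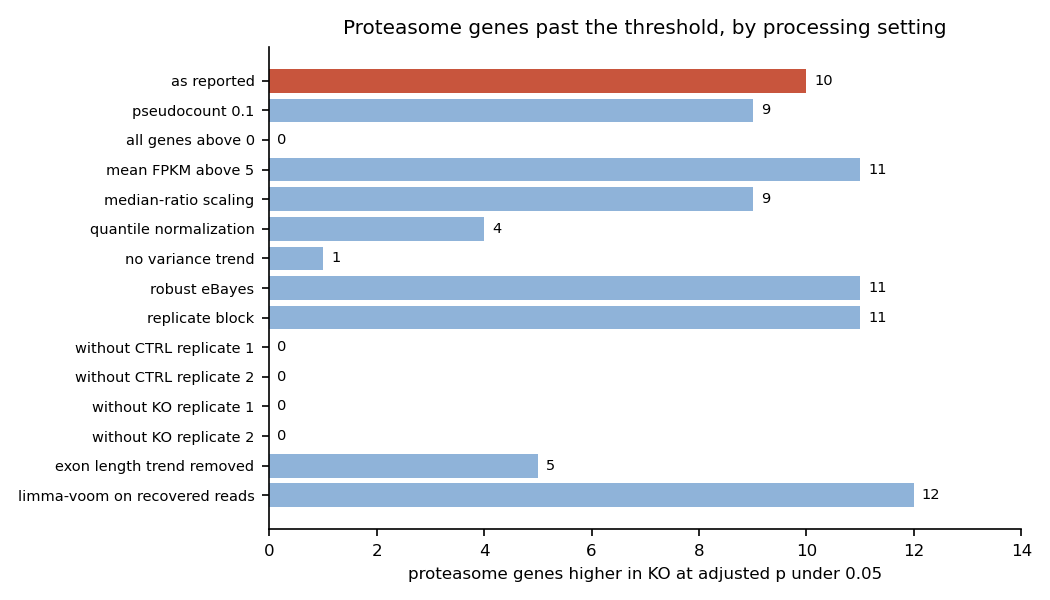
Number of proteasome genes higher in KO at an adjusted p under 0.05 for the reported fit and for each of 14 other settings. The count is 10 as reported and reaches 12 with limma-voom on recovered reads. It is 0 when all genes above 0 are tested, where 0 of all 19888 genes passed. No bar stands where any 1 library is left out, and nearly all calls over the whole table were lost there.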

How the data were processed

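RNA-seq of splenic Treg cells was analysed in 4 libraries, 2 per genotype, each pooled from 2 mice. The values are FPKM as deposited by the authors, who mapped 150 bp read pairs to mm10 with HISAT2 (2.2.1), counted genes with featureCounts (2.0.1) and compared genotypes with edgeR (3.34.0), per the labels and the methods. Gene length, strand use and multi-mapped reads are not given in the sources used here. Columns named WT were read as the CTRL libraries of the same number.

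The file holds no counts, so limma (3.58.1, R 4.3.3; lmFit, eBayes with an intensity trend, two-sided) was run on log2(FPKM + 1) for the 11399 genes with at least 1 FPKM in at least 2 libraries. Benjamini-Hochberg adjustment covered all of them, and an adjusted p under 0.05 was the threshold. Fold changes on this scale understate those of weak genes. Low FPKM values stood in whole-number ratios. These gave whole reads (within 0.01) for 99.7% of 19888 genes above 0, as lower bounds on depth, and limma-voom was run on them as an alternative. The median SE was 0.087 on the log2 scale. Since each library is a pool, the spread between replicates is that between 2 pools per genotype. The p-values rest on that spread after eBayes drew it toward a trend fitted over all 11399 genes.

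Positions and exon lengths came from GENCODE vM21 (GRCm38), and promoters from RefSeq. Motifs were searched on both strands. The family, its roles, the partner, class I and marker lists and the tests were chosen with earlier results of these data known. Library values were printed for genes past the threshold, for the highest and lowest fold change and the highest mean of each role, for Psmb5 to Psmb10, Psme1 to Psme4 and the symbol-only matches. Psme2b and Paaf1 were not analysed here. Further members and partners were named after their values were seen. The procedure was tested on simulated data in which the changes were larger than those of the proteasome genes and all genes had the same dispersion. That test does not bear on calls of the size described here. Python 3.11.15, numpy 2.4.6, pandas 2.3.3 and matplotlib 3.10.9 were used otherwise. Alternatives were a pseudocount of 0.1, other filters, scalings and variance models, removal of the exon length trend, a replicate block, limma-voom and leaving out each library.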

Additional observations from a re-analysis of the deposited data

How the results depend on the processing

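Of 14 alternatives, 9 left 4 to 12 proteasome genes higher in KO or, without a variance trend, 1, and 5 left 0. The count was 0 when all genes above 0 were tested and without any 1 library, 1 (Psmb10) without a variance trend, 4 after quantile normalization and 5 with the exon length trend removed, and 0 proteasome genes were lower in every setting. Without 1 library, 0 or 1 of all genes tested passed the threshold, and the cause was not tested. The lone library of a genotype is then assumed to vary like the other genotype. With all genes above 0 tested, 0 of all 19888 genes passed. Without a variance trend, 315 of all 11399 genes were higher and 364 lower.

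With the replicate block, 11 proteasome genes were higher, Psma1 and Psme1 added and Psmb6 lost, and the log2 fold change of Psmb10 was again 0.43. Over all genes tested, 968 were higher and 805 lower with the block, compared with 581 and 530 as reported. Over genes, the difference between libraries 1 and 2 correlated between genotypes with a Pearson r of 0.34 and a Spearman rho of 0.055. Summed B cell, myeloid and erythroid markers were higher in library 1 than in library 2 in both genotypes. The labels tie these libraries by number only, and whether libraries of the same number shared a batch was not tested.

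The median log2 fold change stayed above 0 for the family, for each role and for both gene lists under all alternatives. For all proteasome genes it was 0.11 after quantile normalization and 0.14 to 0.20 without 1 library. After quantile normalization it was 0.099 for alpha, 0.16 for beta, 0.27 for immunoproteasome, 0.17 for ATPase, 0.094 for non-ATPase, 0.090 for activator, 0.046 for partner and 0.071 for class I genes. With the exon length trend removed it was 0.18 for beta and for ATPase genes, 0.15 for non-ATPase, 0.12 for activator, 0.033 for assembly and 0.046 for partner genes. Median-ratio scaling gave 0.083 for activator and 0.048 for partner genes, testing all genes above 0 (which adds Psmb11) gave 0.32 for immunoproteasome genes, and limma-voom gave 0.13 for class I genes. Without 1 library it ran from 0.18 to 0.22 for ATPase, 0.10 to 0.14 for non-ATPase, 0.0064 to 0.14 for activator, 0.0075 to 0.015 for partner and 0.13 to 0.17 for class I genes. Of class I genes, 0 passed with all genes above 0, without a variance trend or without 1 library, 2 with a mean FPKM above 5, after quantile normalization or with the exon length trend removed, and 3 with limma-voom.

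Genes whose log2 fold change changed sign were not past the threshold in any setting, and the cause was not tested. Psmb1 was at 0.0049 with median-ratio scaling, 0.0010 with the exon length trend removed and between -0.047 and 0.020 without 1 library. Psmd4 was at -0.010 and Psme3 at -0.074 after quantile normalization, and with the exon length trend removed Psme3 was at -0.0060 and Psme4 at 0.026. Without 1 library, Psmc6 ran from -0.10 to 0.058, Psme4 from -0.098 to 0.0063, Psmf1 from -0.0056 to 0.14, Psmg2 from -0.21 to 0.087 and Psme3ip1 from -0.052 to 0.24. Depth was not varied, and values of Psma8 and Psmb11 rested on at most 8 recovered reads in any library.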
